A study of Mus musculus with 6 samples.

Results

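Death ligands and receptors of the tumour necrosis factor (TNF) family were examined in thymic natural killer (NK) cells of wild-type and Tcf7 knock-out mice. The 9 genes were chosen by name, with earlier results of these data known. Each was found by its Entrez ID among the 26332 genes of the count table. They were the ligand genes Tnfsf10 (TRAIL) and Fasl, the death domain receptor genes Fas and Tnfrsf25 (DR3), and the genes of 5 receptors without a death domain: Tnfrsf1b (TNFR2), Tnfrsf4 (OX40), Tnfrsf9 (4-1BB), Tnfrsf18 (GITR) and Cd27. All 9 passed the filter on low counts and were tested.

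The libraries came from individual C57BL/6 mice, 4 wild type (WT) and 2 with a Tcf7 knock-out (KO). The labels give WT 1, WT 3 and KO 1 as male and the other 3 mice as female. Cells were sorted from thymus as TCRbeta-, CD3-, CD8- and CD1d tetramer-negative and as NK1.1+ and NKp46+. Tcf7 encodes TCF-1, an HMG-box factor that binds DNA and partners beta-catenin or Groucho corepressors. The sources used here do not give the kind of Tcf7 allele or the age of the mice. Tcf7 had 811 to 947 CPM (counts scaled to library size, with TMM factors) in the WT libraries and 268 and 452 CPM in KO 1 and KO 2, so its transcript was reduced (log2 fold change -1.35, edgeR adjusted p = 0.00294) and still counted.

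TNF family ligands are mostly trimers on the cell surface that cluster their receptors. Receptors with a cytoplasmic death domain, such as FAS and the TRAIL receptors, recruit FADD and caspase-8 and can kill the cell, whereas DR3 mostly signals through TRADD to NF-kB. TNFR2, OX40, 4-1BB, GITR and CD27 bind TRAF adaptors and feed NF-kB signals for survival and costimulation. NK cells use TRAIL and FAS ligand to kill target cells independently of granules. TRAIL marks immature NK cells and ILC1, and loss of CD27 marks late NK maturation.

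The promoters of the 4 members that differed between the groups are shown because Tcf7 encodes a factor with a known DNA core. Each window holds 300 bases around a transcript start in RefSeq's table on GRCm38.p6, the same build as mm10, with 250 bases before that start. For Tnfsf10 and Tnfrsf9 this is the outer end of the gene as given here, whereas for Tnfrsf25 it lies at 152115934, 406 bases inside the gene, and for Cd27 at 125237027, 109 bases inside. Capitals mark every match to the TCF/LEF core letters CTTTGT or CTTTGA on either strand, so that the reverse matches read ACAAAG or TCAAAG. Tnfrsf9 and Tnfrsf25 have 2 windows each in the table, of which the more upstream one is printed. The windows are chr3:27316827-27317126 (plus strand) for Tnfsf10, chr4:152115684-152115983 (plus) for Tnfrsf25, chr4:150919905-150920204 (plus) for Tnfrsf9 and chr6:125236978-125237277 (minus) for Cd27.
Tnfsf10: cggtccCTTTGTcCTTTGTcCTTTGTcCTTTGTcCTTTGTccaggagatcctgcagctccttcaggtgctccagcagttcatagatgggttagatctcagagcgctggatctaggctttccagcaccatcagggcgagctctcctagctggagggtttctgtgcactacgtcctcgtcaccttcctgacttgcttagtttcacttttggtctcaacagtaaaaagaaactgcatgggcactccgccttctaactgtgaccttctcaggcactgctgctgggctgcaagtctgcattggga
Tnfrsf25: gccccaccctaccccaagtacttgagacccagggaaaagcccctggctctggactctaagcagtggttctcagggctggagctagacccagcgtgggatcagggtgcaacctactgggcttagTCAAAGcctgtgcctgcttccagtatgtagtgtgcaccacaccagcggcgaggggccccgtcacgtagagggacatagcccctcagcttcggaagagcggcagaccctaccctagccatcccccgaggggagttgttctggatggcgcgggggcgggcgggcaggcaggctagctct
Tnfrsf9: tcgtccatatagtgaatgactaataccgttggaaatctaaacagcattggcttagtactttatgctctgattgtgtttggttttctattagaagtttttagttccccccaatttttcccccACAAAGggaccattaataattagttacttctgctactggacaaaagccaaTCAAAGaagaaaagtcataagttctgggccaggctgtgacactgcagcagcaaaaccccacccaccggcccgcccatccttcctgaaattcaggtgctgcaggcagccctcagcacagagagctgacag
Cd27: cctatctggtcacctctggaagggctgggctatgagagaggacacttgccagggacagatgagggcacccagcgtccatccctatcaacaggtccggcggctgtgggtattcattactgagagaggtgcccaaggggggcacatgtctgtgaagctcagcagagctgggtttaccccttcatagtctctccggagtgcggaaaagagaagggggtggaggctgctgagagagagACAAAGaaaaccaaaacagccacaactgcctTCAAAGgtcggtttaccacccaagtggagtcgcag

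The Tnfsf10 window holds 5 copies of CTTTGT at a spacing of 7 bases, the first starting 244 and the last 216 bases before the start site. Of 13130 windows of tested genes, 24.2% held at least 1 match and 2 held 5 or more, those of Tnfsf10 and Arvcf. The limit of 5 was taken from the Tnfsf10 window itself. Among the members, 6 of 9 had a match in at least 1 window, as did 27.8% of 10367 tested genes with a window. The 6 were the 4 called members plus Fas and Tnfrsf4, with 1 match each in the latter pair, and the windows of Fasl, Tnfrsf1b and Tnfrsf18 held none. A match describes letters in the window and is not evidence of binding, which was not measured.

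KO and WT were compared with edgeR's quasi-likelihood test over 13652 genes, with sex as an additive term. Called genes are those whose adjusted p was below 0.05. Over all tested genes 13.7% were called, 8.13% higher and 5.58% lower in KO. Of the 9 members, 3 rose (Tnfsf10, Tnfrsf9 and Tnfrsf25), 1 fell (Cd27) and 5 were not called. Their median log2 fold change was 0.45, against 0.02 over all tested genes. Both KO libraries lay above all 4 WT libraries for 4 members, the 3 called ones and Fasl, where 20.5% of tested genes did so. They lay below for Cd27 alone, where 18.8% of tested genes did so. In either direction, 5 of 9 members and 39.3% of tested genes did not overlap. The members were chosen with earlier results of these data known, so their median and these shares describe them and are not a test. Levels are TMM-scaled CPM, and fold changes are KO over WT. In sorted bulk cells, fewer expressing cells and less RNA per cell cannot be told apart.

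**Figure D1:**
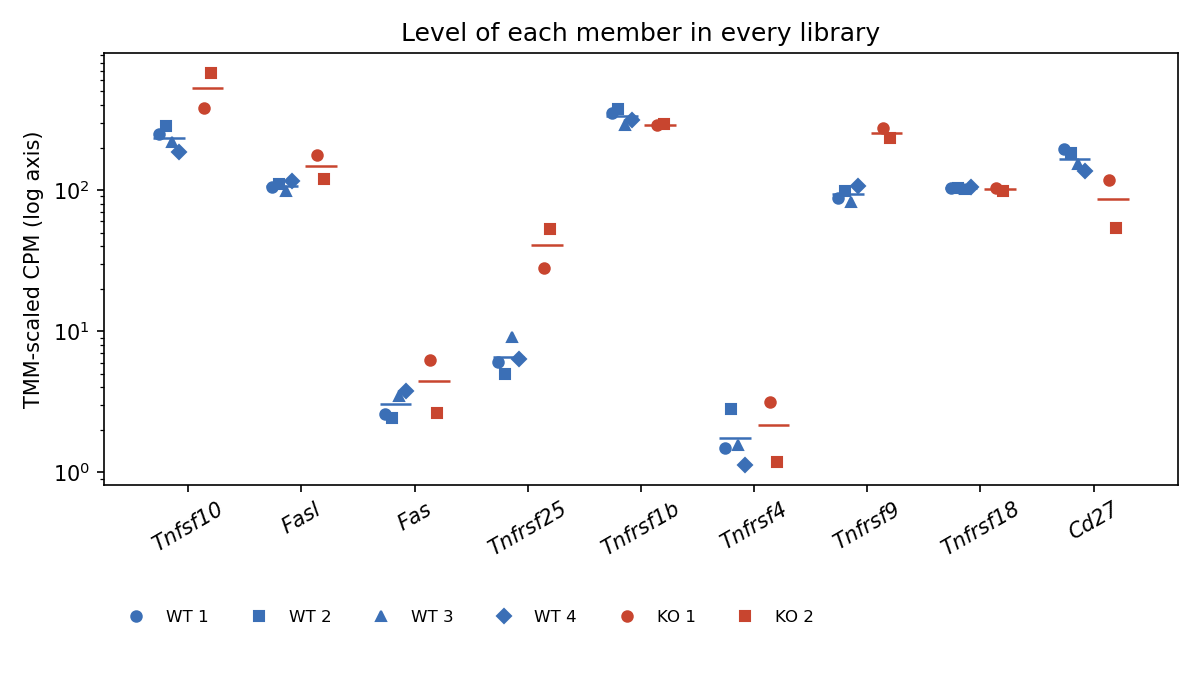
TMM-scaled CPM (log axis) of the 9 members in each library, with blue for the 4 WT and red for the 2 KO libraries, marker shapes for single libraries and a line at each group mean. The KO points of Tnfsf10, Tnfrsf25 and Tnfrsf9 lie above all WT points and those of Cd27 below them, while those of Tnfrsf18 lie at 99.0 to 103 CPM beside 102 to 105 CPM in WT.

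Each library held at least 98.1 CPM of both ligand genes. Tnfsf10 (chromosome 3, 27317077 to 27339665), which encodes TRAIL, had 251, 284, 219 and 187 CPM in WT 1 to WT 4. KO 1 had 381 CPM and KO 2 had 678 CPM. The groups did not overlap, and the KO libraries differed more from each other than the WT libraries did. The gene rose 2.19-fold (log2 fold change 1.13, SE 0.22, adjusted p = 0.0157), with a 95% interval of 1.54 to 3.12. Its call was lost without WT 3 (adjusted p = 0.0523) and without KO 2, where the log2 fold change was 0.69 (adjusted p = 0.141).

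Fasl (chromosome 1, 161780691 to 161788495) encodes FAS ligand. It had 105, 110, 98.1 and 116 CPM in WT 1 to WT 4, with 176 in KO 1 and 119 in KO 2. KO 2 lay just above the highest WT library, and KO 1 well above it. The log2 fold change of 0.45 was not called (SE 0.16, adjusted p = 0.110), and the 95% interval of the fold ran from 1.05 to 1.77. Without KO 2 it was 0.79 and called (adjusted p = 0.0254), without KO 1 it was 0.072, and DESeq2 called it narrowly (adjusted p = 0.0495).

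Of the death domain receptor genes, Tnfrsf25 was called and Fas was not. Tnfrsf25 (chromosome 4, 152115528 to 152120119), the gene of DR3, the receptor of TL1A, had 6.03, 4.94, 9.12 and 6.38 CPM in WT 1 to WT 4. In KO 1 it had 28.2 CPM and in KO 2 53.2 CPM. Even the lower KO library thus held over 3 times the highest WT level. The rise was 6.15-fold (log2 fold change 2.62, SE 0.31, adjusted p = 2.59e-03; 95% interval of the fold 3.70 to 10.2), and 95.6% of tested genes had a lower log2 fold change. It was called under each of the 16 alternatives, with a log2 fold change of 1.90 without KO 2 and 3.23 without KO 1.

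Fas (chromosome 19, 34290647 to 34327775) encodes the receptor of FAS ligand. It was counted at 58 to 93 reads per WT library, or 2.44 to 3.75 CPM, and at 6.26 CPM in KO 1 and 2.64 CPM in KO 2. KO 1 lay above and KO 2 within the WT range. The log2 fold change of 0.45 (SE 0.44, adjusted p = 0.544) had a fold interval of 0.67 to 2.79, and it turned to -0.24 without KO 1.

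Among the TRAF-binding receptors, Tnfrsf9 (chromosome 4, 150920155 to 150946104) encodes 4-1BB, a receptor that activated T and NK cells induce. It had 88.5, 98.1, 81.8 and 106 CPM in WT 1 to WT 4. KO 1 had 276 CPM and KO 2 had 233 CPM. The spread within each group was small beside the gap between the groups. Tnfrsf9 rose 2.73-fold (log2 fold change 1.45, SE 0.13, adjusted p = 7.87e-04; fold interval 2.21 to 3.37). It was called under each of the 16 alternatives, with log2 fold changes of 1.18 to 1.69.

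Cd27 (chromosome 6, 125232620 to 125237136), the receptor of CD70, was the member that fell. Its level was 195, 184, 153 and 135 CPM in WT 1 to WT 4, 119 CPM in KO 1 and 53.8 CPM in KO 2. KO 1 was close to the lowest WT library and KO 2 far below it. Cd27 fell 2.04-fold (log2 fold change -1.03, SE 0.26, adjusted p = 0.0378; interval of the KO over WT ratio 0.32 to 0.74). The call was lost without WT 1 (adjusted p = 0.100), without KO 2 (log2 fold change -0.56, adjusted p = 0.202), without the sex term (0.0724) and with the robust option (0.0629). The long non-coding gene E130112N10Rik spans all of Cd27, at a mean of 1.96 CPM in WT and 3.40 CPM in KO, and reads of overlapping genes cannot be told apart without strand.

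Tnfrsf18 (chromosome 4, 156026322 to 156028894), the gene of GITR, a costimulator of T and NK cells, had nearly the same level in every library. Its CPM was 103, 104, 102 and 105 in WT 1 to WT 4, 103 in KO 1 and 99.0 in KO 2. The WT mean was 104 ± 1.03 CPM (SD, n = 4). Tnfrsf18 was not called, at -0.037 on the log2 scale (SE 0.10, adjusted p = 0.836; fold interval 0.83 to 1.14). Scaling by library size alone turned the value to 0.046. The long non-coding gene Gm16008 overlaps Tnfrsf18, at means under 0.09 CPM in both groups.

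Tnfrsf1b (chromosome 4, 145212368 to 145246870), which encodes TNFR2, had 351, 377, 289 and 313 CPM in WT 1 to WT 4 and 287 and 293 CPM in KO 1 and KO 2. KO 2 lay within the WT range and KO 1 just below it. The log2 fold change was -0.20 (SE 0.12, adjusted p = 0.329; fold interval 0.72 to 1.06).

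Tnfrsf4 (chromosome 4, 156013595 to 156016613), the gene of OX40, a costimulator best known on activated and regulatory T cells, had 26 to 86 reads per library. Its CPM was 1.50, 2.83, 1.56 and 1.13 in WT 1 to WT 4, 3.13 in KO 1 and 1.19 in KO 2. The groups overlapped, and the log2 fold change of 0.23 (SE 0.66, adjusted p = 0.854) had a fold interval of 0.40 to 3.40. The value changed sign without KO 1 (-0.75). The protein-coding gene Sdf4 overlaps Tnfrsf4 by 16 bases, at a mean of 351 CPM in WT and 321 CPM in KO. Its part in the few Tnfrsf4 reads was not tested.

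Per kilobase of gene length, the order of the members changed between the groups. In WT, Cd27 (106 ± 17.4 CPM per kilobase, SD, n = 4) and Tnfrsf18 (103 ± 1.02) stood highest, followed by Tnfrsf1b (67.7 ± 7.99), Fasl (55.4 ± 3.95), Tnfsf10 (47.6 ± 8.47) and Tnfrsf9 (42.2 ± 4.81). Tnfrsf25 (4.13 ± 1.11), Fas (1.70 ± 0.36) and Tnfrsf4 (1.52 ± 0.64) were far lower. Neighbours in this order overlapped over the WT libraries, apart from the steps from Tnfrsf18 to Tnfrsf1b, from Tnfrsf9 to Tnfrsf25 and from Tnfrsf25 to Fas.

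In KO, Tnfrsf9 (114 ± 13.6 CPM per kilobase, SD, n = 2) and Tnfsf10 (107 ± 42.5) came first and overlapped each other, and Tnfsf10 also overlapped Tnfrsf18 (100 ± 2.85). Fasl (76.3 ± 20.6), Tnfrsf1b (59.0 ± 0.96), Cd27 (54.7 ± 29.1) and Tnfrsf25 (25.4 ± 11.0) followed. Fas (2.47 ± 1.42) and Tnfrsf4 (1.87 ± 1.19) stayed lowest and overlapped. By the means, Cd27 thus moved from place 1 to 6 and Tnfrsf9 from 6 to 1. Over the KO libraries Cd27 (34.1 to 75.2) overlapped Tnfrsf1b (58.4 to 59.7) and Fasl (61.7 to 90.8), so its place there is not distinct.

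**Figure D2:**
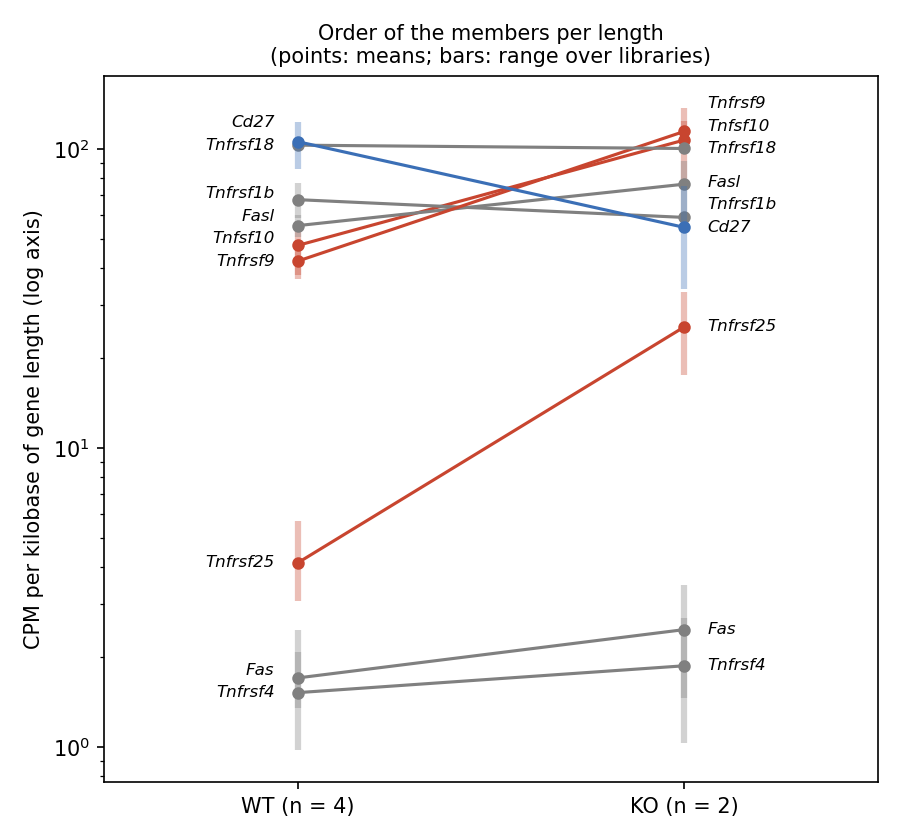
Mean CPM per kilobase of gene length (log axis) of each member in WT (n = 4) and KO (n = 2), joined by a line, with vertical bars for the range over libraries and red for called higher, blue for called lower and grey for not called. Tnfrsf9 and Tnfsf10 climb from 42.2 and 47.6 to 114 and 107, Cd27 drops from 106 to 54.7, and Tnfrsf18 runs level.

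Of the 9 members, 5 lie on chromosome 4, of which 2 rose and 3 were not called. Tnfrsf4 and Tnfrsf18 are 9708 bases apart with 1 annotated gene between them. Per kilobase, Tnfrsf18 had 103 CPM and Tnfrsf4 1.52 CPM in WT, and neither was called. Tnfrsf9 and Tnfrsf25, which both rose, are 1169423 bases apart with 26 annotated genes between them.

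In edgeR's fit with a genotype by sex term, 0 of 13652 genes were called (0%), and 1368 had an unadjusted p under 0.05. Each KO sex is 1 library, so sex and mouse cannot be told apart there. Against the WT libraries of the same sex, Tnfsf10 had a log2 ratio of 0.70 in the male and 1.52 in the female KO library, Tnfrsf25 1.90 and 3.23, and Cd27 -0.55 and -1.57. For these 3 genes KO 2 was thus further from WT than KO 1. Tnfrsf9 had 1.69 and 1.19 and Fasl 0.79 and 0.08, with KO 1 further from WT. For these 5 genes the interaction term had adjusted p-values of 0.388 to 0.506.

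The other genes of the TNF family and of its signalling were taken from 4 lists. Their counts of called genes stand beside the 13.7% called over all tested genes, and no list was tested as a set. Of 16 other ligand genes, 13 were tested, of which 1 rose, 1 fell and 11 were not called (median log2 fold change 0.47). Tnfsf8, the gene of CD30 ligand, rose (log2 fold change 1.60, adjusted p = 0.00373) from 23.3, 25.6, 21.8 and 17.6 CPM in WT 1 to WT 4 to 51.2 in KO 1 and 84.3 in KO 2. Tnfsf12, the gene of TWEAK, fell (log2 fold change -0.95, adjusted p = 0.00708) from 24.2 to 29.1 CPM over the WT libraries to 13.9 in KO 1 and 13.5 in KO 2. Both calls were made under each of the 16 alternatives.

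Ligands of the member receptors are given by their pairing, chosen after their values were seen. Tnfsf15 and Tnfsf18 did not pass the filter and were not tested, and none of the 4 tested ligand genes (Tnfsf9, Cd70, Tnfsf4 and Tnf) was called. Tnfsf9, the ligand gene of 4-1BB, had 1.42 to 3.63 CPM in WT, 2.96 in KO 1 and 4.61 in KO 2 (adjusted p = 0.492). Tnfsf15, the gene of the DR3 ligand TL1A, had 0 counts in the 4 WT libraries, where a floor of 3 counts is 0.0963 to 0.180 CPM, and 0.75 and 0.22 CPM in KO 1 and KO 2, from 13 and 6 reads. The GITR ligand gene Tnfsf18 was above 0 in KO 2 alone (0.41 CPM). Cd70, the CD27 ligand gene, lay at 0 to 0.58 CPM in all libraries and Tnfsf4, the OX40 ligand gene, at 0.81 to 1.44 CPM. The TNFR2 ligand gene Tnf had 6.30 to 15.2 CPM in WT and 16.4 and 13.0 CPM in KO (adjusted p = 0.509).

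Of 21 other receptor genes, 15 were tested, of which 2 rose, 1 fell and 12 were not called (median log2 fold change 0.28). Cd40, a receptor of B and myeloid cells, rose from 0.40 to 2.42 CPM over WT to 6.26 in KO 1 and 5.35 in KO 2 (log2 fold change 2.84, adjusted p = 0.0330). Tnfrsf13c, which encodes the BAFF receptor of B cells, rose from 10.5 to 13.7 CPM over WT to 19.6 and 19.5 CPM (0.71, adjusted p = 0.0381). Tnfrsf22, the gene of a TRAIL decoy receptor, fell from 5.65 to 8.88 CPM over WT to 1.10 and 2.82 CPM (-1.87, adjusted p = 0.0355). Because Tnfrsf23 beside it is a near copy, reads may be divided wrongly between these genes. All 3 calls were lost when WT 1, WT 2, WT 3 or KO 1 was left out (with adjusted p of 0.0573 to 0.265), and that of Tnfrsf13c also without WT 4 (0.0653) or KO 2 (0.163). Tnfrsf10b, the gene of the mouse TRAIL death receptor, had 1.38 to 4.45 CPM in WT and 1.85 and 2.45 CPM in KO (adjusted p = 0.615).

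Death receptor signalling genes were all 20 tested, of which 3 rose, 2 fell and 15 were not called (median log2 fold change 0.00). Mlkl, the gene of the necroptosis effector, had 10.1 to 11.9 CPM in WT and 27.2 and 15.7 CPM in KO (log2 fold change 0.97, adjusted p = 0.0228). Ripk3, the kinase gene upstream of Mlkl and chosen after its values were seen, had 25.9 to 29.4 and 39.9 and 39.8 CPM (0.54, adjusted p = 0.0236). Otulin, a linear ubiquitin hydrolase gene, fell from 130 to 154 CPM over WT to 86.5 and 86.0 CPM (-0.68, adjusted p = 0.00806). Pea15a, the gene of a death effector domain protein, fell from 218 to 239 CPM to 126 and 170 CPM (-0.66, adjusted p = 0.0123). Casp8, Fadd and Cflar, the core of the death-inducing complex and chosen after their values were seen, had log2 fold changes of 0.18, 0.00 and 0.24 and were not called.

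The calls of the 4 genes described depended on single libraries. Mlkl lost its call when WT 1, WT 3 or KO 1 was left out (with adjusted p of 0.0712 to 0.200). Of the 6 omissions, Ripk3 was called in that of WT 4 alone, with adjusted p 0.0555 to 0.150 without each of the other 5 libraries. Otulin was not called without KO 2 (0.0670), nor Pea15a without KO 1 (0.0972, log2 fold change -0.48).

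Of 23 tested TRAF adaptor and NF-kB genes, 1 rose, 2 fell and 20 were not called (median log2 fold change -0.09). Traf1, an adaptor gene of TNFR2 and 4-1BB signalling, fell from 151 to 159 CPM over WT to 115 and 95.2 CPM (-0.57, adjusted p = 0.0153), and lost its call without WT 3 (0.0580) or KO 2 (0.119). Traf6, a signal adaptor gene, fell from 102 to 134 CPM to 75.1 and 82.6 CPM (-0.55, adjusted p = 0.0296), a call that did not hold without WT 1, WT 3, KO 1 or KO 2 (0.0620 to 0.133). Tnip1, the gene of an A20-binding inhibitor, rose from 106 to 123 CPM to 154 and 152 CPM (0.40, adjusted p = 0.0469), and lost its call without any one of the 6 libraries (0.0641 to 0.244).

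**Figure D3:**
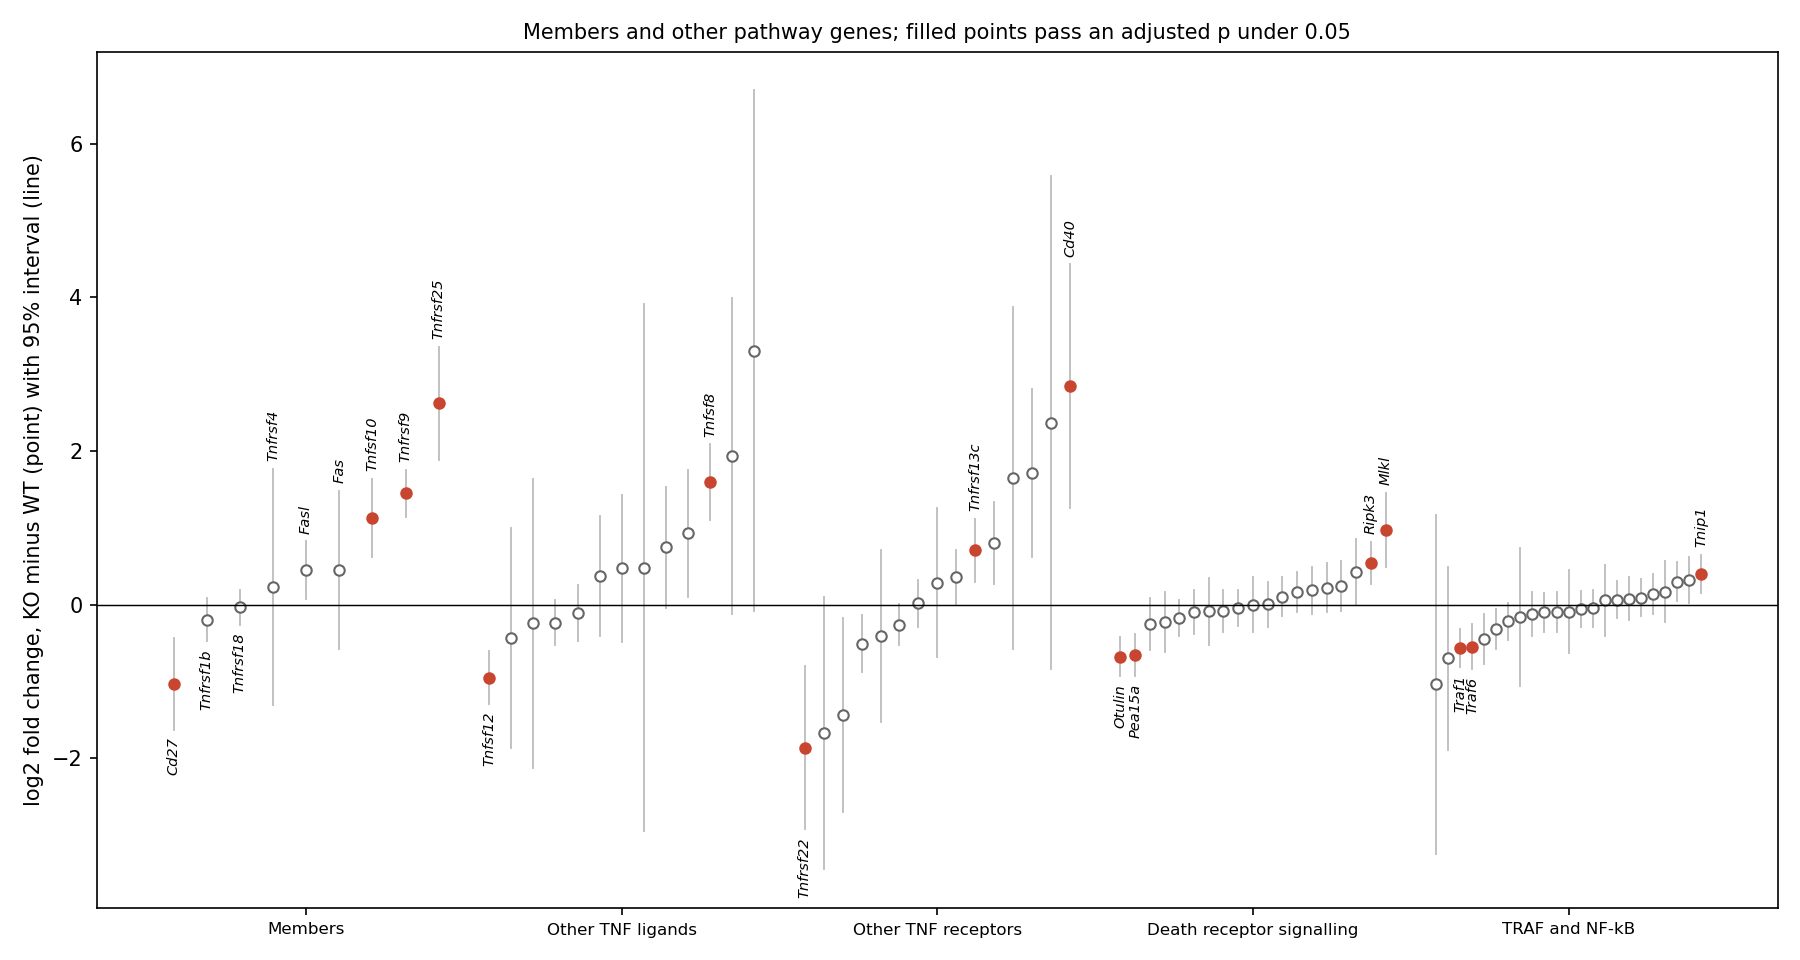
Log2 fold change, KO minus WT, with its 95% interval for the 9 members and tested genes of 4 pathway lists, sorted within each list, with filled points for an adjusted p under 0.05. Tnfrsf25 (2.62), Tnfrsf9 (1.45) and Tnfsf10 (1.13) stand at the upper end of the members and Cd27 (-1.03) at the lower, while most TRAF, NF-kB and death receptor signalling genes lie close to 0.

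By a fixed rule, the genes most like Tnfrsf25 and Cd27 over the 6 libraries were listed, as the called members with the largest rise and fall. The measure was Pearson's r of log2 CPM over 6 libraries. For Tnfrsf25 these were Gclc, Man2a2 and Serpinb6a (r = 0.998, 0.998 and 0.995), and for Cd27 Add3, Kcnq5 and Mid1ip1 (0.996, 0.995 and 0.994). Of 10106 ranked genes, 472 had an r above 0.9 with Tnfrsf25 and 335 with Cd27. The 6 points share libraries and genotype, so these values are a description only.

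Total counts ranged from 16418910 to 31155303 per library. Of all tested genes, 1110 were called higher and 762 lower (59.3% higher), and with scaling by library size alone 1336 and 523 (71.9% higher). The NK markers were present in every library. The 8 genes summed to 12932 to 13893 CPM in WT and 13336 and 11639 CPM in KO 1 and KO 2. Of these genes, 2 fell (Klrb1c and Tyrobp). Gzma, which was not called, was the only 1 of the 8 with a positive log2 fold change. It had 2342 to 3413 CPM in WT and 4268 and 3195 CPM in KO 1 and KO 2, a large part of the sum. For 4 of the 8 genes both KO libraries lay below all WT libraries, where 18.8% of tested genes did so.

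Beside Tnfsf10, Tnfrsf25 and Tnfrsf9, marker genes of other cell types also rose in KO, although the sort gated out TCRbeta+ and CD3+ cells. Of 10 alpha-beta T cell genes 5 rose, with a summed level of 322 to 499 CPM in WT and 1589 and 2103 CPM in KO 1 and KO 2. Of 9 B cell genes 7 rose (377 to 427 CPM against 580 and 465 CPM). Ighm, which was not called, held most of that sum, and the other 8 summed to 10.8 to 20.4 CPM in WT and 223 and 100.2 CPM in KO 1 and KO 2. The ILC1 or resident lymphocyte list had 3 of 5 risen (456 to 843 CPM against 1252 and 1957 CPM). Il7r, which was not called, held most of its WT sum (244 to 501 CPM, against 313 and 458 CPM in KO). The ILC2 or ILC3 list had 3 of 5 tested genes risen (2.15 to 9.20 CPM against 89.1 and 129 CPM), with Il22 and Il17a at 0 in all libraries. The regulatory T cell list had 1 of 4 tested genes risen (87.7 to 103 CPM against 157 and 448 CPM), and Foxp3, its defining gene, was at 0 in KO 1 and 1.75 CPM in KO 2. Ikzf2, which was not called, held most of its WT sum (65.5 to 74.1 CPM, against 72.6 and 133 CPM in KO).

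Of 10 myeloid genes 3 rose (5.14 to 58.0 CPM in WT against 158 and 183 CPM). Of 6 tested stromal genes 4 rose (111 to 120 CPM against 271 and 451 CPM), and without Pecam1, which held most of that sum, the list had 5.52 to 7.95 CPM in WT and 25.9 and 48.5 CPM in KO. Of 6 gamma-delta T cell genes 3 were matched and 2 rose, Sox13 and Blk (0.30 to 2.99 CPM together in WT, 26.1 and 15.8 CPM in KO). Trdc, the third, was not called and brought the sums to 109 to 208 CPM in WT and 309 and 151 CPM in KO. KO 2 exceeded KO 1 in the alpha-beta T, regulatory T, ILC, myeloid and stromal sums and for Tnfsf10 and Tnfrsf25. Genes within a list did not all follow its sum. Trac (405 CPM in KO 1, 636 in KO 2) and Trbc2 (473 and 941 CPM) held most of the alpha-beta T sum. Cd4, Cd8b1 and Themis were also higher in KO 2, whereas Trbc1, Cd3d, Cd3e, Cd3g and Cd8a were higher in KO 1. S100a8, S100a9 and Adgre1 of the myeloid list were higher in KO 1 as well, and its other genes in KO 2. Inpp4b, Il1rl1, Krt5 and Cdh5 of the ILC and stromal lists were likewise higher in KO 1. KO 1 exceeded KO 2 in the B cell and gamma-delta T cell sums and for Tnfrsf9 and Fasl. Within the B cell list, Igkc (20.3 CPM in KO 1, 47.1 in KO 2) and Ighm (357 and 365 CPM) were higher in KO 2. With 2 KO libraries, any unequal gene is higher in 1 of them, so a shared side is a description only. Cd40 and Tnfrsf13c rose beside the B cell markers. The part of these cells in the members' differences was not tested. Immediate early genes, which handling can induce, summed to 881 and 933 CPM in WT 2 and WT 1, 2897 in WT 3, 5449 in WT 4, and 531 and 601 CPM in KO 1 and KO 2. Without WT 3 and WT 4 together, the 4 called members were still called. That omission leaves a difference in early genes, because WT 1 and WT 2 also lay above both KO libraries in this sum. The part of handling in the members' differences was not tested.

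**Figure D4:**
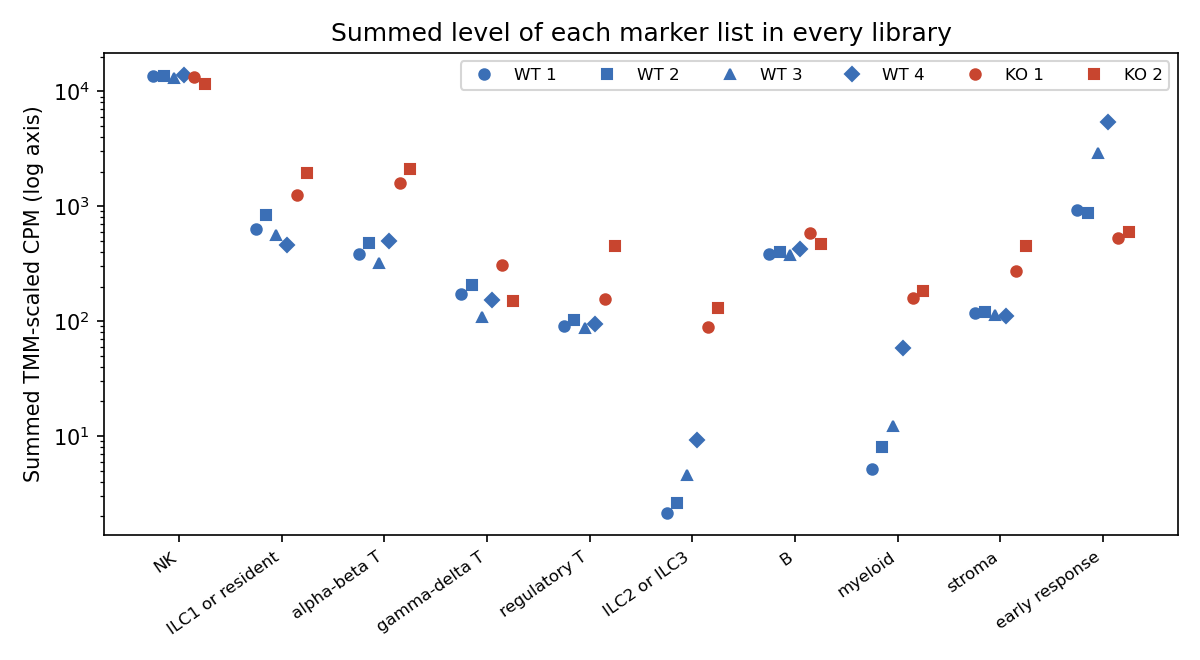
Summed TMM-scaled CPM (log axis) of each marker list in every library, blue for WT and red for KO. The NK sums lie at 11639 to 13893 CPM, with KO 2 the lowest. Both KO libraries lie above WT for the alpha-beta T, ILC, B, myeloid and stromal lists. WT 3 and WT 4 lie above the rest for early response genes.

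**Figure D5:**
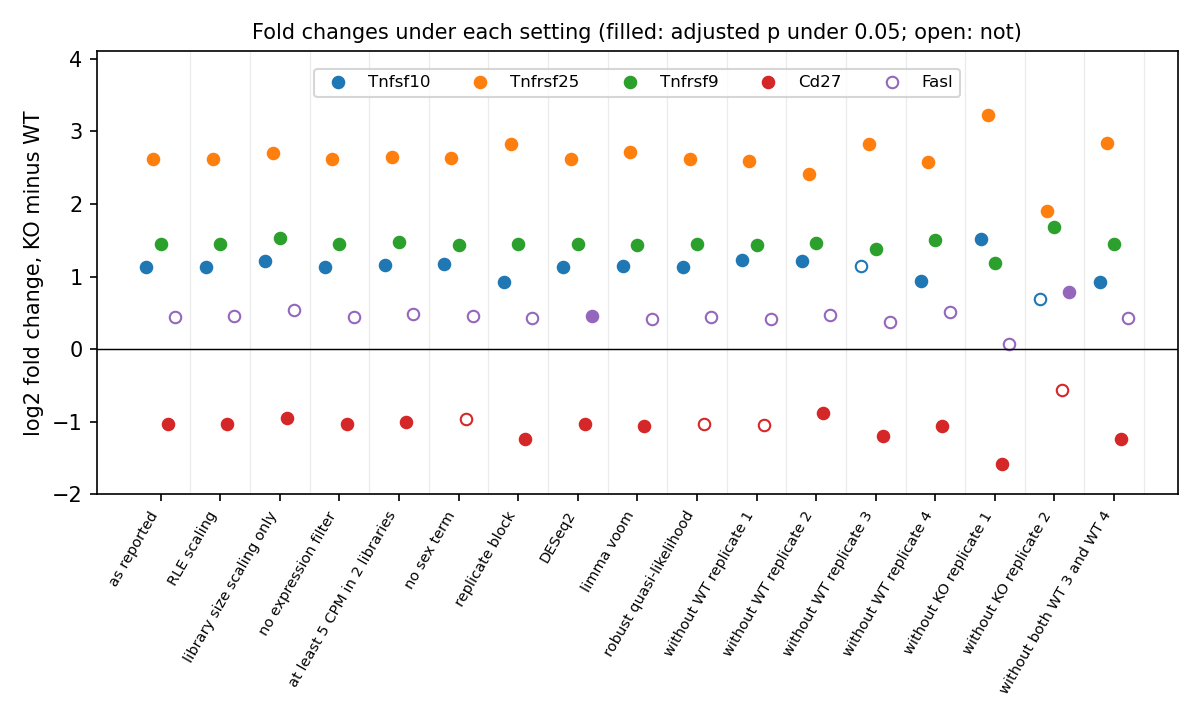
Log2 fold change, KO minus WT, of the 4 called members and Fasl as reported and under 16 other settings, filled where the adjusted p was under 0.05. Tnfrsf25 and Tnfrsf9 are filled throughout, Tnfsf10 is open without WT 3 and without KO 2, and Cd27 is open under 4 settings.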

How the data were processed

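Per the labels' protocols, the authors sorted thymic NK cells, purified RNA from each mouse and made libraries with a low-input full-length cDNA kit that does not mark strand, sequenced in paired-end mode. The deposited values are raw counts per Entrez gene. The submitters' processing notes name featureCounts as a tool and mm10 as the build. The aligner and any version number were not given in the sources used here. Gene length in bases, of no stated definition, was taken from the same deposited table (another unit, used only to scale levels per kilobase). The 6 single-sample files repeated the table's counts, and there were 0 columns of other samples. Reads were amplified without molecular identifiers, so each count is not a separate molecule.

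Symbols came from RefSeq on GRCm38.p6, which matched 25275 of 26332 IDs. The 1057 unmatched IDs, with 0.623% of counts, stayed in the tests. Counts were fitted with edgeR 4.0.16 (R 4.3.3) using TMM, filterByExpr, glmQLFit and glmQLFTest with the labelled sex added to genotype, and p-values were adjusted by Benjamini-Hochberg over 13652 genes. The fit had 3 residual and 4.50 prior degrees of freedom. The SE is the log2 fold change divided by the root of F, and 95% intervals use it with those degrees of freedom. Pairs of libraries within a group differed beyond counting error, with a chi-square over its degrees of freedom of 8.86 to 62.2 in WT and 53.7 in KO (genes with at least 10 counts). A floor of 3 counts was 0.0963 to 0.183 CPM and covers counting error only. Alternatives were RLE and library-size scaling, no filter, a stricter filter (5 CPM in 2 libraries), omission of the sex term, a replicate block, DESeq2 1.42.0, limma 3.58.1 voom, the robust option, each library left out, and WT 3 and WT 4 left out together. With 1 KO library left, it was assumed to vary like WT. Scripts were tested on simulated counts.

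All members were described. From each pathway list the rule named up to 4 called genes with the largest change, and it named the 3 genes most correlated with the called member of largest rise and of largest fall, among named genes with a mean of at least 2 log2 CPM (prior count of 2). The members, lists and rules were chosen with earlier results of these data known. The counts of the death receptor signalling list include 1 called gene that is not reported here by name.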

Additional observations from a re-analysis of the deposited data

Results flagged for a closer look

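Of the 21 genes that are members or were named by the rule, 1 (Cd40) had 1 WT library far from the other 3, and chance gives this in about 1 in 20 such groups. Tnfaip3 and Nfkbia, chosen after their values were seen and so no part of that count, met the same criterion. In each case the library was WT 4. Tnfaip3, the gene of the NF-kB inhibitor A20, had 1796 CPM in WT 4 against 144 to 235 CPM in the other WT libraries and 188 and 193 CPM in KO 1 and KO 2. Nfkbia, the gene of the inhibitor IkB-alpha, had 582 CPM in WT 4 against 135 to 163 CPM in the other WT libraries. Cd40 had 2.42 CPM in WT 4 against 0.40 to 0.66 CPM in the other WT libraries. In the same library the immediate early genes summed to 5449 CPM and the myeloid markers to 58.0 CPM, and their part in these values was not tested. Among the members, which did not meet the criterion, WT 4 was the highest WT library for Fasl, Fas, Tnfrsf9 and Tnfrsf18 and the lowest for Tnfsf10, Tnfrsf4 and Cd27. The share of all tested genes with WT 4 at either end was not computed, so this describes the members only. For Tnfrsf18 the WT 4 value was 104.8 CPM beside 102.4 to 104.1 CPM.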

How the results depend on the processing

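Of 142 fold changes of the members under the alternatives, 129 kept their direction and their side of the threshold. Tnfrsf25, Tnfrsf9 and Tnfrsf1b did so throughout. Cd27 was not called without the sex term (-0.96) or with the robust option (-1.03), so that no member was called lower there (0), and DESeq2 called Fasl (0.45). Tnfrsf18 changed sign with library-size scaling (0.046), and Tnfrsf4 without WT 3 and WT 4 together (-0.10). With each library left out in turn, log2 fold changes ranged from 0.69 to 1.52 for Tnfsf10, 0.072 to 0.79 for Fasl, -0.24 to 1.04 for Fas, -0.75 to 1.03 for Tnfrsf4 and -1.58 to -0.56 for Cd27. Members called lower then ranged from 0 to 1, called genes from 934 to 1908, other receptors from 0 to 2, death signalling genes from 1 to 5 and TRAF and NF-kB genes from 0 to 3. DESeq2 called 2955 genes (1872 as reported). Called receptor genes (3 as reported) numbered 5 with library-size scaling, the filter at 5 CPM, limma voom and the robust option, and 6 without a filter and with DESeq2, which called 5 TRAF and NF-kB genes. Without WT 3 and WT 4 together, 1 receptor, 3 death signalling and 1 TRAF or NF-kB gene were called. The filter at 5 CPM left out Fas and Tnfrsf4. The causes were not tested. With the replicate number as a block, Tnfrsf4 was -0.10, 1341 genes were called, and receptor, death signalling and TRAF counts were 1, 3 and 1. The same-numbered libraries share only a number and sex: deviations from the group means correlated at 0.13 for WT 1 with KO 1 and -0.05 for WT 2 with KO 2. Numbers 3 and 4 occur in WT alone, so under the block WT 3 and WT 4 add nothing to the genotype difference. The block thus nearly repeats the omission of WT 3 and WT 4 and is not a separate alternative. It is still counted among the 16 alternatives and the 142 fold changes. The log2 fold change of Tnfsf10 was 0.929 with the block and 0.931 with that omission. The block changed no member's call.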

Other observations

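The receptor genes Tnfrsf22, Tnfrsf23 and Tnfrsf26, chosen after their values were seen, lie on chromosome 7, and the first pair encodes TRAIL decoy receptors. Tnfrsf22 fell as described. Tnfrsf23 had 3.36, 3.53, 1.80 and 3.75 CPM in WT 1 to WT 4 and 0.58 and 1.93 CPM in KO 1 and KO 2 (log2 fold change -1.44, adjusted p = 0.125). Tnfrsf26 had 34.8 to 47.3 CPM in WT and 26.3 and 32.9 CPM in KO (-0.51, adjusted p = 0.0757). The KO libraries lay below all WT libraries for Tnfrsf22 and Tnfrsf26, and KO 2 lay within the WT range for Tnfrsf23. The ligand genes Tnf, Lta and Ltb, on chromosome 17, had log2 fold changes of 0.37, 0.74 and -0.11 (adjusted p 0.194 to 0.690). Ltb, a lymphotoxin chain gene, had 263 to 334 CPM in WT and 247 and 334 CPM in KO.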
